A study of Mus musculus with 2 samples.

Results

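A set of 4 genes that handle creatine were followed across the cells of B16-OVA tumors: *Slc6a8*, which encodes the creatine transporter (CrT), *Gatm* and *Gamt*, which encode the enzymes of creatine synthesis, and *Ckb*, which encodes the brain-type creatine kinase. They were chosen by name, for their roles and not for their values, but with earlier results of these data known. They are 4 of the 31053 genes in the deposited count matrices. The question was which tumor-infiltrating immune cells (TIIs) carried RNA for taking up, making or phosphorylating creatine, and whether those levels differed with creatine supplementation. B16-OVA is a mouse melanoma line that expresses the model antigen ovalbumin, and the tumors grew under the skin of male C57BL/6J mice aged 8 to 12 weeks. The control group received PBS, and the creatine group received 10.5 mg creatine per animal into the peritoneum each day from day 3. In each group 4 tumors were harvested on day 14 and combined, live CD45.2+ cells were sorted, 10000 cells were loaded, and 1 droplet library of 3′ RNA ends was sequenced. These values are from the sequencing methods, and other passages of the study's text give an earlier day and a larger number of mice. The protocol entry of the control sample also names a creatine injection, but its title and treatment tag give an untreated, PBS-injected group, and it is called the control here. With 1 pooled library per group there is no replicate of either treatment, so no test between the groups was possible, and every interval below is a 95% exact interval for counting error only.

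Creatine is built in 2 steps: GATM moves an amidino group from arginine to glycine, and GAMT then methylates the product with S-adenosylmethionine. Most cells that use creatine import it through SLC6A8, a sodium- and chloride-coupled carrier, and creatine kinases such as CKB pass a phosphate between ATP and creatine so that phosphocreatine can refill ATP where it is spent. Kidney and liver are the classical sites of synthesis, and muscle and brain the classical users, while tumor-associated macrophages are known for using arginine through arginase and nitric oxide synthase, the same amino acid that GATM consumes.

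All 4 members are protein-coding genes. In GRCm38 with the GENCODE M21 annotation, *Slc6a8* lies on the plus strand at chrX:73673150-73682502, *Gatm* on the minus strand at chr2:122594467-122611303, *Gamt* on the minus strand at chr10:80258151-80261012 and *Ckb* on the minus strand at chr12:111669361-111672338. A 3′ library reads the ends of transcripts. Of the windows of 50 bases in the last 500 bases of the members' transcripts, none of *Slc6a8*, *Gatm* or *Gamt* recurred in another gene, while 122 of 1535 windows of *Ckb* (7.95%) recurred in *Ckb-ps1* or *Gm12892*, so some *Ckb* reads could have been ambiguous. Windows are not reads, and the share of such reads was not measured.

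The promoters of the members are shown because the genes differ in which cells hold their RNA. RefSeq promoter sequences of GRCm38.p6 were found for 3 of the 4 members, all on the minus strand. They run from 250 bases before to 50 bases after the start of the gene in RefSeq. For *Gatm* this start is not the start of the GENCODE span given above. Capitals mark matches on either strand to TATAAA (the TATA box), CCAAT (the CCAAT box, which reads ATTGG on the other strand) or GAGGAA (a core bound by the macrophage factor PU.1), and no matches in these windows overlap. Of the 32851 promoters of the same length, 13.6% held TATAAA, 37.4% CCAAT and 28.3% GAGGAA. The sequences are *Gatm* at chr2:122611228-122611527, *Gamt* at chr10:80260963-80261262 and *Ckb* at chr12:111672289-111672588.
Gatm: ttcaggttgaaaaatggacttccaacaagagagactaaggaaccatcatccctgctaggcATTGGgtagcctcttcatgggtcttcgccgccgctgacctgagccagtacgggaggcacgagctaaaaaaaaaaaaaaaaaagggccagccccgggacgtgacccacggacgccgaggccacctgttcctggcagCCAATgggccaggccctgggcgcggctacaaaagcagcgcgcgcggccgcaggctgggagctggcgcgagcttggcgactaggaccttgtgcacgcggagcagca
Gamt: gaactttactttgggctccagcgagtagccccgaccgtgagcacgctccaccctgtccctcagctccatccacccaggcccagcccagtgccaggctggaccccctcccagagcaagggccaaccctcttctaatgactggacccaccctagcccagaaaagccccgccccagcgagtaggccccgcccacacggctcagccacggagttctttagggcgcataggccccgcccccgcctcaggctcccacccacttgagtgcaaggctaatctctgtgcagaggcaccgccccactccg
Ckb: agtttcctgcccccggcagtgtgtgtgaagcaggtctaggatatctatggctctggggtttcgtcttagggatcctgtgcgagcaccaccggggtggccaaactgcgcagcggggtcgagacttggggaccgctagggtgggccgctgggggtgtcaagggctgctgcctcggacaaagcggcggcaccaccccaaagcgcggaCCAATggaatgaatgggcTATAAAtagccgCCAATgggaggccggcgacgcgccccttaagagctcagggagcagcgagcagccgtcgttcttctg
*Ckb* held a TATA box starting 28 bases before the gene's start, with a CCAAT box at 46 bases and another at 16 bases before it. *Gatm* held a CCAAT box 55 bases before its RefSeq start and the reverse complement at 190 bases, and the *Gamt* window held none of the 3 motifs. These letters are descriptions of the windows and say nothing of what binds there.

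The libraries held 7649 control and 6503 creatine barcodes, of which 7241 and 6229 passed the limit of 25% mitochondrial UMIs, with medians of 7688 and 8475 UMIs (unique molecules) per cell. The libraries shared 30 barcodes. Cells were placed in types by summed marker genes, and a level is the UMIs of a gene as counts per 1e6 UMIs (CPM), both summed over the cells of that type in that library. Macrophages, gated on *C1qa*, *C1qb* and *C1qc*, numbered 1084 control and 413 creatine cells (15.0% and 6.63% of the cells kept). Another 205 and 68 cells lay between 750 CPM and the *C1q* limit of 1500 CPM, and 179 and 61 between the limit and 3000 CPM, so the edge of this gate was not sharp. The cDC gate was less sharp, with 136 and 146 cells between 150 and its limit of 300 CPM. Above the limit by less than 2-fold lay 147 and 116 cells. No UMI minimum applied to these counts, while 332 and 231 cells passed the limit with at least 3 UMIs. Conventional dendritic cells (cDCs) numbered 235 and 146, *Ccr7*+ DCs 36 and 10, plasmacytoid DCs (pDCs) 38 and 18, classical monocytes 360 and 509, nonclassical monocytes 134 and 313, CD8 T cells 2499 and 2008, Tregs 466 and 287, other CD4 T cells 191 and 220, gamma-delta T cells 47 and 117, and NK cells 725 and 1174. The listed macrophage markers summed to 12676 and 13654 CPM in the macrophages and to 194 and 142 CPM in the cDCs. A further 21 and 13 cells were gated as melanoma cells on *Dct*, *Pmel*, *Tyrp1* and *Mlana*, and the 7 listed melanoma markers summed to 17327 and 21777 CPM in them. Their level of *Ptprc*, which encodes CD45, was 46.0 and 10.7 CPM, against 437 and 459 CPM in macrophages, so these cells went against the CD45.2+ label of the sort. In every other type *Ptprc* was at 270 CPM or above.

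The creatine transporter gene was high in macrophages and melanoma cells, and low or near the detection limit in T cells, NK cells and DCs. *Slc6a8* reached 603 UMIs or 33.8 CPM (31.2 to 36.6) in control macrophages and 359 UMIs or 36.7 CPM (33.0 to 40.7) in creatine macrophages. The few melanoma cells held 84 UMIs or 121 CPM (96.3 to 149.5) and 55 UMIs or 84.2 CPM (63.5 to 109.6), which was 3.57-fold (2.81 to 4.50) and 2.30-fold (1.70 to 3.06) the macrophage level. In each library the interval of melanoma cells lay above that of macrophages, and that of macrophages above those of T cells, NK cells, monocytes and DCs, among which neighbours in the order overlapped. Control B cells and the neutrophils of both libraries gave 0 UMIs, but were too few to place below macrophages. The exact intervals reached 62.5 CPM in control B cells, and 37.2 and 52.9 CPM in control and creatine neutrophils.

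**Figure D1:**
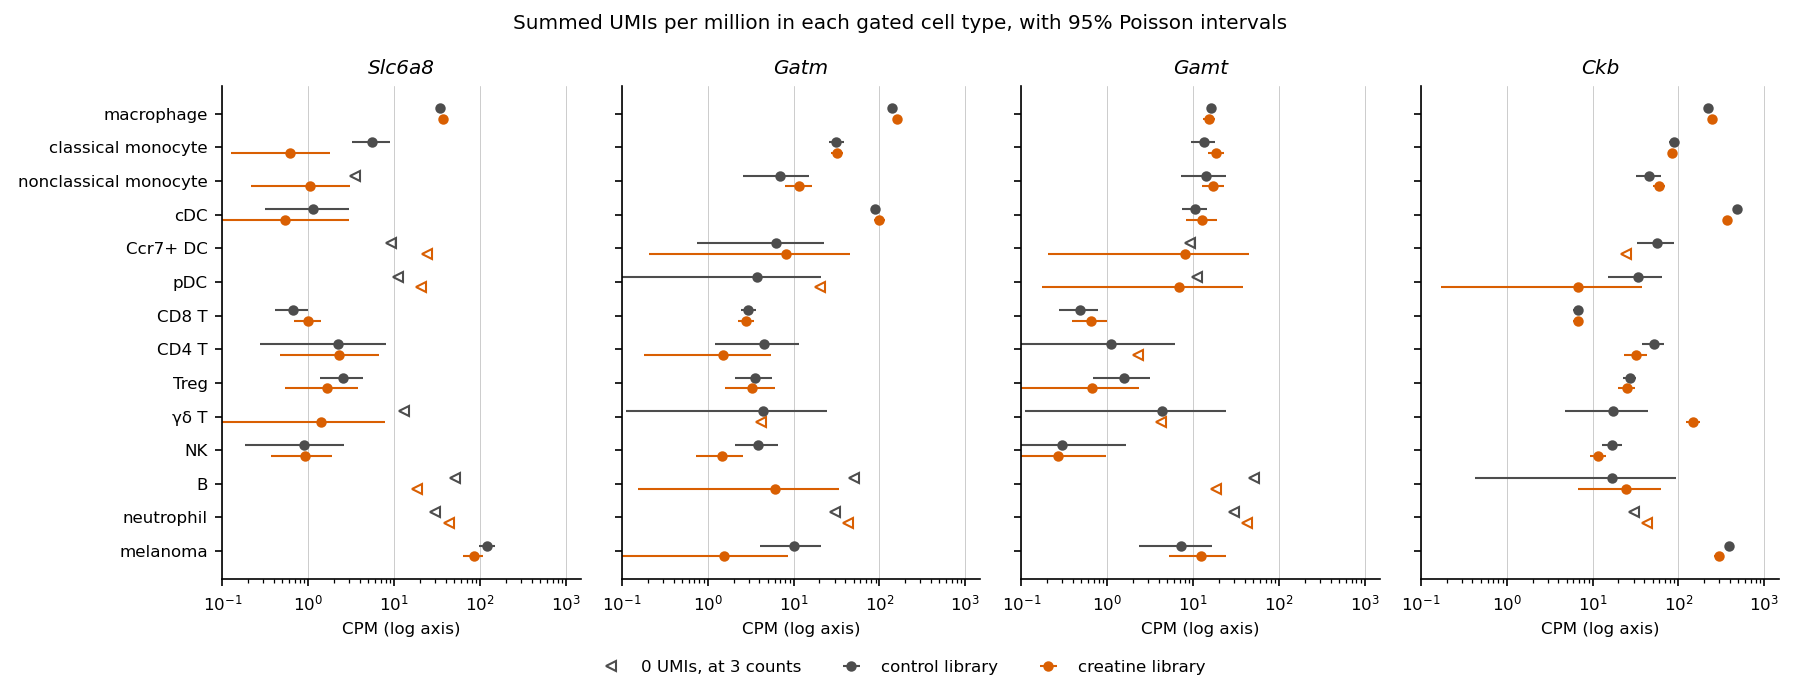
Levels of the 4 members in CPM (log axis) by cell type, 1 panel per gene, with a point for each library and bars for the exact 95% interval of its UMI count. Open triangles mark types with 0 UMIs at 3 counts of the total, and lower bars of very low values run past the left edge. *Slc6a8* stood high in melanoma cells and macrophages, *Gatm* in macrophages and cDCs, and *Ckb* in cDCs, melanoma cells and macrophages.

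In cDCs *Slc6a8* gave 4 UMIs in 3 of 235 control cells, or 1.15 CPM (0.31 to 2.95), and 1 UMI in 146 creatine cells, or 0.53 CPM (0.01 to 2.96). CD8 T cells gave 22 UMIs or 0.66 CPM (0.41 to 1.00) and 31 UMIs or 1.00 CPM (0.68 to 1.41). The level in cDCs was 1.75-fold (0.44 to 5.15) that in CD8 T cells in control tumors and 0.53-fold (0.01 to 3.20) with creatine, so a difference between these types was not detectable at this depth. The control macrophages exceeded the cDCs 29.3-fold (11.4 to 108.0), and the creatine macrophages 69.0-fold (12.3 to 2733), the latter against 1 UMI. No UMI of *Slc6a8* was found in *Ccr7*+ DCs or pDCs of either library. With so few cells, the exact intervals still reached 11.5 CPM in control *Ccr7*+ DCs and 13.7 CPM in control pDCs. With creatine they reached 29.9 CPM in *Ccr7*+ DCs and 25.2 CPM in pDCs. These bounds lay below the macrophage interval of the same library, with creatine by little.

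Among lymphocytes, Tregs held 13 *Slc6a8* UMIs or 2.57 CPM (1.37 to 4.39) in the control, 3.90-fold (1.80 to 8.08) the CD8 T cell level, and 5 UMIs or 1.64 CPM (0.53 to 3.84) with creatine, 1.65-fold (0.50 to 4.28) that level. NK cells held 3 and 7 UMIs, or 0.90 and 0.93 CPM. B cells and neutrophils held none in 24 and 42 control cells and in 39 and 23 creatine cells. Droplets also capture free RNA. The *C1q* level in CD8 T cells was 0.704% and 0.310% of that in macrophages. But *C1q* defined the macrophage gate, and T cells past its limit were left out as cells in several gates. The *C1q* share was thus held low by the gating, and gives no free scale for other genes. The *Slc6a8* level in CD8 T cells was 1.95% and 2.71% of the macrophage level. Whether those CD8 T cell reads came from the T cells was not tested.

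The melanoma genes were read in macrophages in the same way. The levels of *Dct*, *Pmel*, *Tyrp1* and *Mlana* in control macrophages were between 0.419% and 0.796% of those in melanoma cells, and in creatine macrophages between 0.304% and 0.546%. *Slc6a8* in macrophages was 28.0% and 43.6% of its melanoma level. The 4 melanoma genes defined the melanoma gate, and macrophages past its limits were left out as cells in several gates. The low shares of these genes were thus partly set by the gating, and give no free scale for *Slc6a8*. Whether tumor RNA gave part of the macrophage *Slc6a8* reads was not tested.

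The share of cells with a UMI rises with depth, and macrophages were deep, so cells were thinned to 2000 UMIs each, leaving out 97 control and 29 creatine macrophages that were shallower. *Slc6a8* was then seen in 5.37% (4.05 to 6.97) of 987 control macrophages and in 7.29% (4.90 to 10.4) of 384 creatine macrophages, against 24.9% and 32.7% before thinning. It was seen in 1 of 231 cDCs (0.433%) and 0 of 139, in 1 of 2434 CD8 T cells (0.041%) and 1 of 1988 (0.050%), and in 4 of 19 and 4 of 13 melanoma cells.

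Within macrophages, *Slc6a8* was higher in the cells low for monocyte genes than in those high for them. Macrophages were split at 500 CPM of *Ccr2* plus *Ly6c2*, a chemokine receptor and a surface antigen of monocytes newly arrived from blood. In the cells low for both, 695 in the control and 262 with creatine, *Slc6a8* was 45.0 CPM (41.4 to 48.9) and 47.3 CPM (42.3 to 52.8). In the cells high for them, 389 and 151, it was 8.70 CPM (6.42 to 11.5) and 12.4 CPM (8.75 to 17.1). The low cells thus exceeded the high cells 5.18-fold in the control and 3.81-fold with creatine, log2 ratios of 2.37 (1.94 to 2.83) and 1.93 (1.43 to 2.46). Macrophages with *Arg1*, the arginase that competes with GATM for arginine, held 55.1 and 58.3 CPM of *Slc6a8* against 24.5 and 27.1 CPM in those without, 2.25-fold and 2.15-fold higher. Dividing macrophages, with at least 2 UMIs and 100 CPM of *Mki67*, *Top2a*, *Cdk1* and *Birc5*, held 29.1 and 35.0 CPM against 37.6 and 37.9 CPM in those not dividing, a log2 difference of -0.37 (-0.62 to -0.13) in the control and of -0.11 (-0.43 to 0.20) with creatine.

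Classical monocytes showed 17 *Slc6a8* UMIs or 5.53 CPM (3.22 to 8.86) in the control and 3 UMIs or 0.61 CPM (0.13 to 1.79) with creatine. Most of the control reads lay at the border with macrophages when cells were clustered on their most variable genes. Of the 360 gated control cells, 243 fell in macrophage clusters and held 16 of the 17 UMIs, and the 105 in monocyte clusters held 1. Clusters were named by their most common gated type, which made up as little as 52.3% of the gated cells in a macrophage cluster. Of the 509 creatine cells, 69 fell in macrophage clusters with 2 UMIs and 415 in monocyte clusters with 1. The *Arg1*+ classical monocytes, 59 control and 19 creatine cells, held 11 and 2 of the UMIs, 20.1 CPM (10.0 to 35.9) and 9.29 CPM (1.12 to 33.6). The listed macrophage markers were at 743 and 323 CPM in the gated classical monocytes, so the difference in *Slc6a8* between the libraries moved with them, and their part in it was not tested. Nonclassical monocytes held 0 and 3 UMIs.

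A UMI of *Slc6a8* was found in 270 control and 135 creatine macrophages, with 1 UMI in 125 and 56 of them and at most 21 and 10 in a cell. These cells were deeper than the rest, with medians of 21990.5 against 11564 UMIs in the control and 32100 against 16224 with creatine, so the comparison was repeated on the 709 of 1084 and 320 of 413 macrophages with at least 10000 UMIs, each thinned to that number, where 133 (18.8%) and 67 (20.9%) had a UMI. The genes named here were picked after their values were seen. Of 9670 genes compared, 81 were at least 2-fold higher in the *Slc6a8*+ macrophages in both libraries and 87 at least 2-fold lower, which is 0.838% and 0.9% of the genes. Such counts were not made for a split on another gene, and the part of depth in them was not tested. *Atp6v0d2*, a subunit of the proton pump found in macrophages and osteoclasts, was at 200.5 against 33.2 CPM in the control and 195 against 26.7 CPM with creatine, log2 ratios of 2.59 and 2.87, and 1.71 and 1.86 after thinning. *Mmp12*, the macrophage elastase, was at 721 against 129 CPM and 464 against 53.1 CPM, log2 ratios of 2.49 and 3.13, and 2.52 and 2.11 after thinning. *Nos2*, the inducible nitric oxide synthase, was at 87.6 against 23.0 CPM and 130 against 33.4 CPM. *Abca1*, a cholesterol exporter, was at 110 against 30.9 CPM and 116 against 35.0 CPM. These genes were higher in the *Slc6a8*+ cells in each library, also after thinning. The thinned values came from the same cells in which the genes were picked, so they are no separate check.

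Of the listed genes that handle arginine, all but *Arg2* had enough UMIs for this comparison. *Arg1* was at 463 against 153 CPM and 310 against 113 CPM, and *Slc7a2*, a carrier of cationic amino acids, at 36.2 against 17.6 CPM and 35.4 against 10.3 CPM, while *Ass1* was lower, at 15.1 against 22.9 CPM and 11.4 against 40.1 CPM. *Asl*, *Slc7a1*, *Slc7a7*, *Oat* and *Odc1* had log2 ratios between -0.33 and 0.32. The monocyte genes went the other way, with *Ccr2* at 106 against 524 CPM and 67.0 against 577 CPM (log2 ratios of -2.31 and -3.11), *Ly6c2* at 49.4 against 224 CPM and 51.2 against 540 CPM, and *Plac8* and *Chil3* lower in each library too. The other members differed little: the log2 ratio of *Gatm* was 0.15 and 0.20, that of *Gamt* -0.14 and 0.05, and that of *Ckb* 0.13 and 0.26. After thinning *Gamt* was at -0.41 and, on 4 UMIs in the *Slc6a8*+ cells, at -1.48 (-3.42 to -0.01). Of the melanoma genes, *Pmel* had log2 ratios of -0.07 and 0.24 and *Dct* of 0.36 and 0.76. *Npy* had log2 ratios of 2.74 and 2.72 before thinning, but 1.49 and -0.78 after it.

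**Figure D2:**
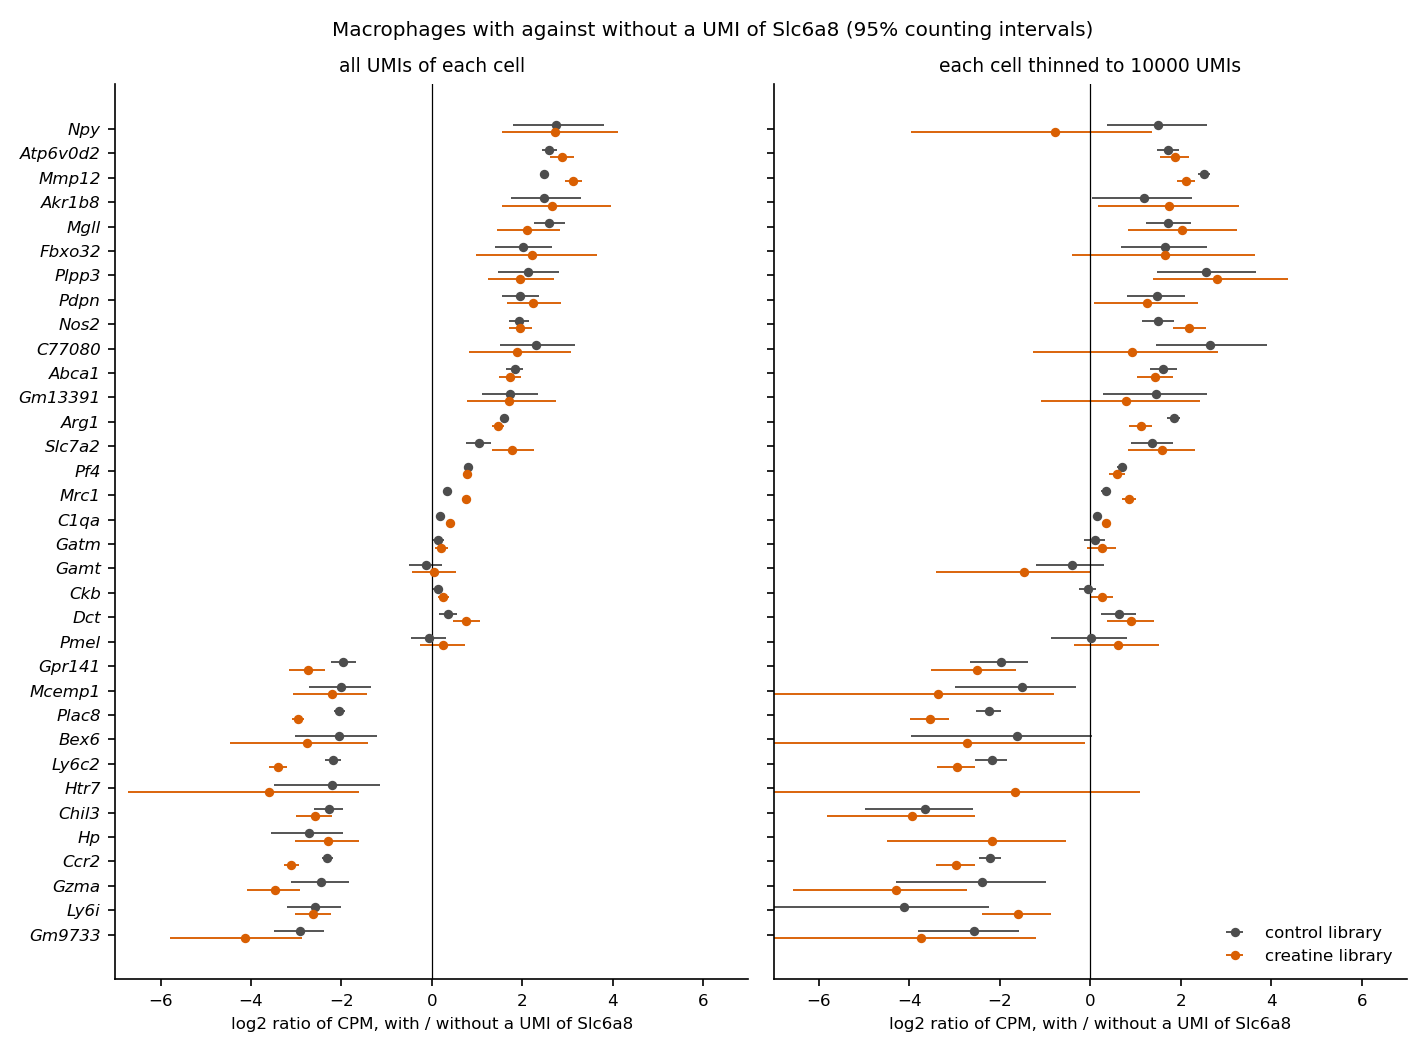
Genes in macrophages with against without a UMI of *Slc6a8*, as log2 ratios of CPM in each library, from all UMIs and after thinning each cell to 10000 UMIs. *Mmp12*, *Atp6v0d2* and *Nos2* lay on the higher side and *Ccr2* and *Ly6c2* on the lower side in both libraries, while *Gatm* lay near 0. Bars are 95% counting intervals, some of which run past the left edge.

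The first enzyme of synthesis, *Gatm*, marked macrophages and cDCs. Macrophages held 2531 UMIs or 142 CPM (136 to 147) in the control and 1580 UMIs or 161 CPM (154 to 170) with creatine, 75.4% and 71.2% of all *Gatm* UMIs. The cDCs held 309 UMIs or 89.0 CPM (79.4 to 99.5) and 187 UMIs or 99.4 CPM (85.7 to 115). Macrophages exceeded cDCs 1.59-fold (1.42 to 1.80) and 1.62-fold (1.39 to 1.90), and cDCs exceeded CD8 T cells by 23.9-fold to 38.0-fold and by 27.2-fold to 45.8-fold, the bounds of the intervals. Below them came classical monocytes at 31.6 and 32.2 CPM and nonclassical monocytes at 6.99 and 11.5 CPM. The intervals of macrophages, cDCs and classical monocytes did not overlap in either library.

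T and NK cells held little *Gatm*: CD8 T cells 2.97 and 2.83 CPM, Tregs 3.56 and 3.29 CPM, and NK cells 3.88 and 1.46 CPM. The CD8 T cell level was 2.09% and 1.75% of that in macrophages. In cDCs, by contrast, *Gatm* was at 62.7% and 61.6% of the macrophage level. The *C1q* level in cDCs was 1.02% and 0.471% of that in macrophages. Cells past the *C1q* limit were kept out of the cDC gate, so this *C1q* share was held low by the gating. The melanoma cells held 7 and 1 *Gatm* UMIs, and 6 of the 7 came from 1 cell. After thinning to 2000 UMIs, *Gatm* was seen in 20.3% and 24.7% of macrophages, 13.4% and 16.5% of cDCs, and 0.575% and 0.503% of CD8 T cells. Thinned to 1000 UMIs, it was seen in 9.36% (5.96 to 13.8) of control and 1.38% (0.167 to 4.89) of creatine cDCs. The order of the libraries in this cDC share was thus not stable.

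*Gatm* differed between subsets of both cell types. Among cDCs it was at 142 CPM (118 to 169) and 193 CPM (156 to 236) in cDC1s, the subset known for cross-presenting antigen to CD8 T cells (cells with *Xcr1* or *Clec9a* alone, 51 and 35), and at 54.9 CPM (44.9 to 66.5) and 73.6 CPM (55.6 to 95.6) in cDC2s (cells with *Cd209a*, *Mgl2* or *Ffar2* alone, 141 and 64), a 2.58-fold and 2.62-fold difference. Among macrophages it was higher in the *Ccr2*/*Ly6c2*-low cells, 164 and 182 CPM against 93.3 and 115 CPM. It was also higher in dividing macrophages, 175 and 199 CPM against 115 and 136 CPM, 1.53-fold and 1.47-fold, the opposite side from *Slc6a8* in the control. *Arg1*+ macrophages held 149 and 167 CPM against 139 and 159 CPM, and the intervals of those log2 ratios, -0.02 to 0.22 and -0.09 to 0.22, included 0.

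The second enzyme, *Gamt*, was within 2-fold between macrophages, monocytes and cDCs of a library. It was at 16.4 CPM (14.5 to 18.4) and 15.5 CPM (13.2 to 18.2) in macrophages, 13.3 and 18.8 CPM in classical monocytes, 14.0 and 17.1 CPM in nonclassical monocytes, and 10.7 and 12.8 CPM in cDCs. The intervals of neighbours in this order of levels overlapped in each library. Macrophages exceeded cDCs 1.54-fold (1.09 to 2.22) in the control and 1.22-fold (0.79 to 1.96) with creatine. CD8 T cells held 16 and 20 UMIs, 0.479 and 0.642 CPM, and macrophages exceeded them 34.1-fold and 24.2-fold. NK cells held 1 and 2 UMIs and melanoma cells 5 and 8. Macrophages were fewer and monocytes more numerous with creatine, and the macrophage share of all *Gamt* UMIs was 63.8% in the control and 38.5% with creatine, while the classical monocyte share was 8.95% and 23.3%. Unlike *Gatm*, *Gamt* was not higher in *Ccr2*/*Ly6c2*-low macrophages, at 14.7 and 15.3 CPM against 20.1 and 16.1 CPM, log2 ratios of -0.45 (-0.80 to -0.10) and -0.08 (-0.58 to 0.45).

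The kinase gene *Ckb* was highest in cDCs among the immune cells. The cDCs held 1682 UMIs or 484 CPM (462 to 508) in the control and 683 UMIs or 363 CPM (336 to 391) with creatine. Melanoma cells held 390 and 299 CPM, macrophages 223 CPM (216 to 230) and 245 CPM (235 to 255), classical monocytes 88.2 and 83.2 CPM, and nonclassical monocytes 45.4 and 59.5 CPM. CD8 T cells held 6.86 and 6.84 CPM, and cDCs exceeded them 70.6-fold and 53.1-fold. In the creatine library the intervals of cDCs and melanoma cells overlapped, and in the control library cDCs lay above both melanoma cells and macrophages. After thinning to 2000 UMIs, *Ckb* was seen in 52.4% and 41.7% of cDCs and in 28.8% and 34.1% of macrophages, against 1.64% and 1.51% of CD8 T cells.

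Within cDCs, *Ckb* was at 747 CPM (692 to 806) and 577 CPM (512 to 649) in cDC1s and at 369 CPM (343 to 398) and 242 CPM (208 to 280) in cDC2s, a 2.02-fold and 2.39-fold difference. The *Ccr7*+ DCs, the mature DCs that migrate to lymph nodes, held 18 UMIs or 55.9 CPM (33.1 to 88.4) in the control, 10 of them in 1 cell, and control cDCs exceeded them 8.66-fold (5.46 to 14.7). The 10 creatine *Ccr7*+ DCs held 0 *Ckb* UMIs, with an exact interval that reached 29.9 CPM. *Gatm* was low in them too, with 2 and 1 UMIs. Thus *Ckb*, *Gatm* and *Gamt*, but not *Slc6a8*, were read in cDCs at levels well above those in CD8 T cells.

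**Figure D3:**
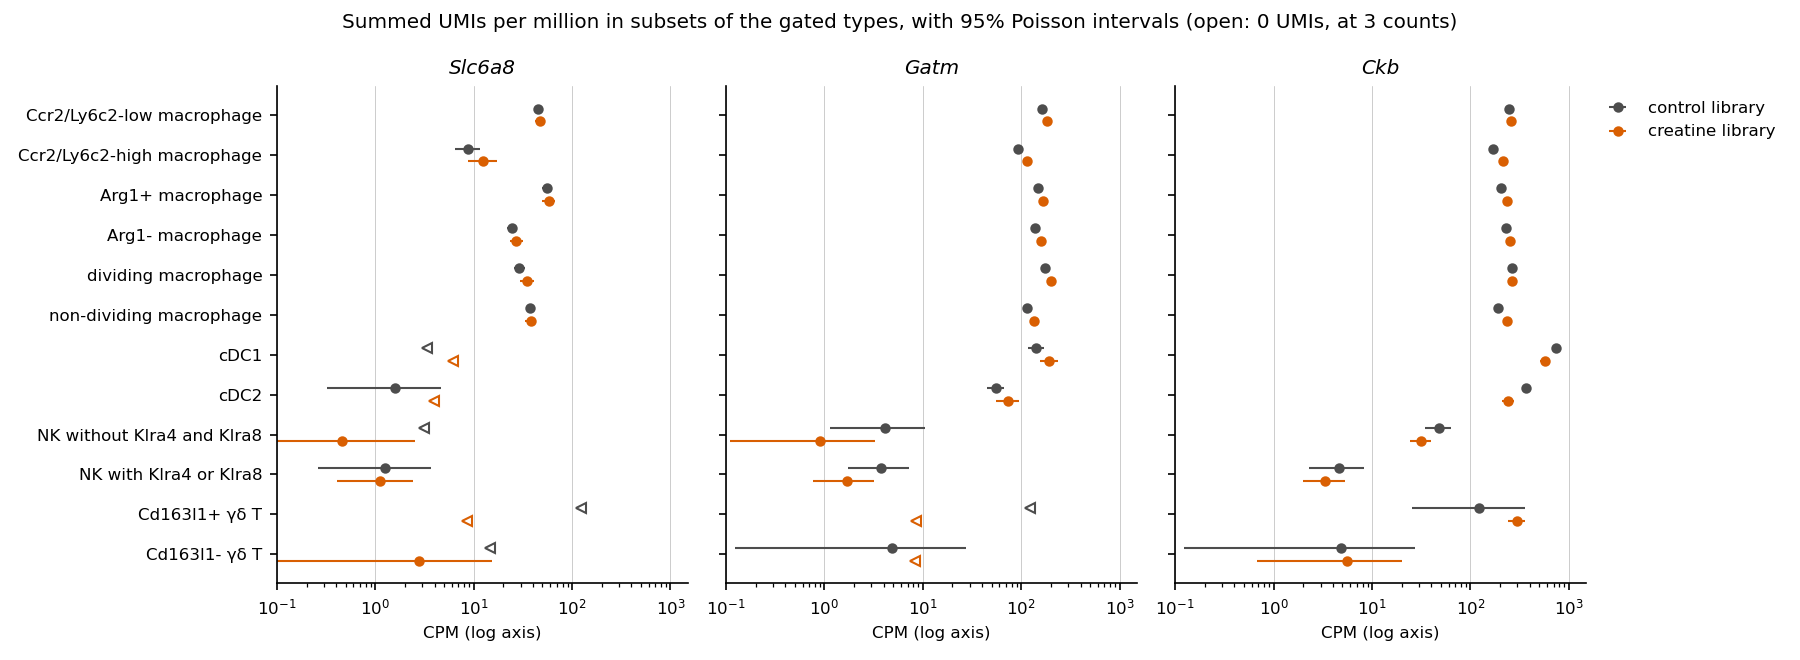
Levels of *Slc6a8*, *Gatm* and *Ckb* in CPM (log axis) in subsets of macrophages, cDCs, NK cells and gamma-delta T cells, with a point per library and exact 95% intervals. Open triangles mark 0 UMIs at 3 counts of the total, and lower bars of very low values run past the left edge. *Slc6a8* separated the *Ccr2*/*Ly6c2*-low from the -high macrophages, and *Ckb* separated cDC1s from cDC2s and NK cells without *Klra4* and *Klra8* from the others.

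Lymphocytes were not uniform for *Ckb*. CD4 T cells held 51.4 CPM (37.7 to 68.6) and 32.3 CPM (23.4 to 43.6), and Tregs 27.1 and 25.3 CPM, 3.94-fold and 3.70-fold the CD8 T cell level. NK cells held 57 UMIs or 17.0 CPM and 87 UMIs or 11.5 CPM. Split after these values were seen, the NK cells without *Klra4* and *Klra8*, receptors of the Ly49 family (208 and 309 cells), held 47.5 and 31.4 CPM of *Ckb*, and the 517 and 865 with either receptor 4.62 and 3.36 CPM, a 10.3-fold and 9.35-fold difference. *Klra4* and *Klra8* are also among the gate genes of NK cells, so cells without them passed the gate on its other genes alone. Gamma-delta T cells held 4 UMIs or 17.4 CPM (4.75 to 44.7) in the control and 106 UMIs or 148 CPM (122 to 180) with creatine. That difference sat in cells with *Cd163l1*, a scavenger receptor gene of gamma-delta T cells that make IL-17, which is also among the gate genes of this type and was again chosen after its values were seen. There were 5 such cells in the control, with 3 *Ckb* UMIs or 122 CPM (25.2 to 357), and 55 with creatine, with 104 UMIs or 294 CPM (240 to 356). The cells without *Cd163l1*, 42 and 62, held 1 and 2 UMIs. Within *Cd163l1*+ cells the log2 ratio of creatine to control was 1.27 (-0.32 to 3.57), and the numbers of these cells moved with the result.

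Cells could hold the RNAs of synthesis, import and phosphorylation together. In another random draw of 10000 UMIs from each of the same 709 control and 320 creatine macrophages, *Slc6a8* was seen in 19.5% and 19.7%, *Gatm* in 61.9% and 67.8%, *Gamt* in 15.7% and 10.9%, and *Ckb* in 75.5% and 77.5%. Both synthesis genes were seen in 10.3% and 7.19%, against 9.69% and 7.42% for the product of their single shares. *Slc6a8* with *Ckb* was seen in 15.2% and 15.0%, against products of 14.7% and 15.3%. Both pairs were thus seen together about as often as the products of their shares. All 4 members were seen in 14 control cells (1.97%) and 3 creatine cells (0.938%). Of the cDCs thinned in the same way, 174 and 92 cells, 43.7% and 43.5% held both *Gatm* and *Ckb*, against products of 42.8% and 42.5%, and 1 cell in each library held *Slc6a8*.

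In macrophages and cDCs, each taken as a whole type, no member with enough UMIs changed by as much as 1.5-fold between the libraries. That is the size used here to call a difference where a gene had at least 20 UMIs over both libraries. In macrophages 0 of the 4 members passed it, with a background of 10.5% of 11657 genes. The log2 ratios of creatine to control were 0.12 (-0.07 to 0.31) for *Slc6a8*, 0.19 (0.10 to 0.28) for *Gatm*, -0.08 (-0.37 to 0.21) for *Gamt* and 0.14 (0.06 to 0.21) for *Ckb*. Their median was 0.13, beside -0.03 over all genes compared. In cDCs 0 of the 3 members with enough UMIs passed, against 20.5% of genes. *Slc6a8* had 4 and 1 UMIs in cDCs, too few to call, with a log2 ratio of -1.12 (-6.74 to 2.22). The ratio there was 0.16 (-0.11 to 0.43) for *Gatm*, 0.26 (-0.55 to 1.04) for *Gamt* and -0.42 (-0.55 to -0.29) for *Ckb*, with a median of 0.16 beside 0.02 over all genes. The *Gatm* ratio differed between subsets, at 0.44 (0.04 to 0.84) in cDC1s and 0.42 (-0.07 to 0.91) in cDC2s. In the 43 control and 47 creatine cDCs with markers of neither subset or of both, it was -0.97 (-1.57 to -0.38), past 1.5-fold. The share of all genes past 1.5-fold was not computed for subsets.

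**Figure D4:**
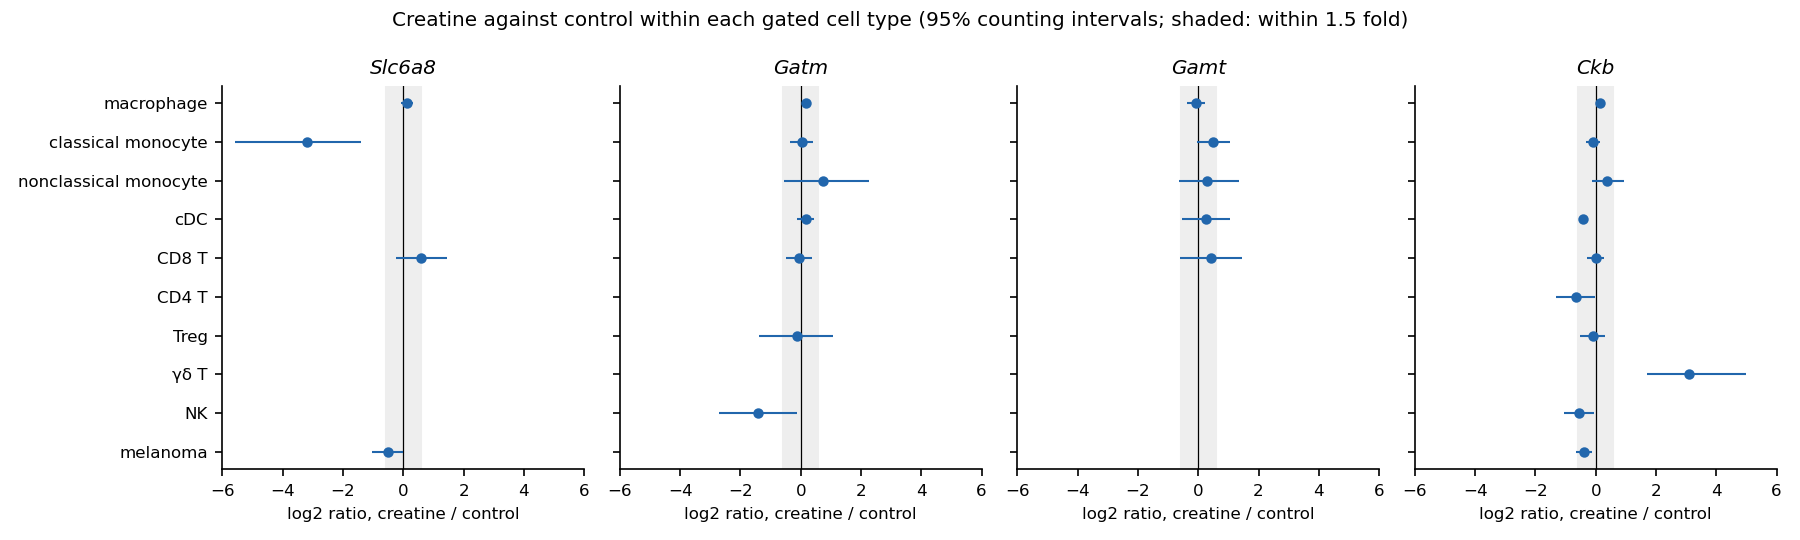
Log2 ratio of creatine to control for each member by cell type, where the gene had at least 20 UMIs, with exact 95% intervals for counting error and shading for less than 1.5-fold. Every member drawn for macrophages and cDCs lay within the shading, and *Slc6a8* in classical monocytes and *Ckb* in gamma-delta T cells lay farthest outside.

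The lower *Ckb* in cDCs with creatine was found in both subsets, by -0.37 (-0.58 to -0.17) in cDC1s and -0.61 (-0.85 to -0.37) in cDC2s on the log2 scale. The cDC2 value was past 1.5-fold, again without a share over all genes to set beside it. Fewer cDCs were dividing with creatine, 17 of 146 against 62 of 235 in the control, and all 10 genes of the dividing-cell list were lower (10.9% of all genes were), with *Mki67* at 54.2 against 168 CPM. Dividing cDCs held more *Ckb* than the others, 574 against 433 CPM in the control and 503 against 335 CPM with creatine. Among cDCs that were not dividing the ratio was -0.37 (-0.53 to -0.22), and among dividing cDCs -0.19 (-0.45 to 0.06). The listed markers of classical monocytes also moved, from 647 to 1344 CPM in the cDC gate, and classical monocytes held 88.2 and 83.2 CPM of *Ckb*. But *Ccr2* is on that list, and it was at 423 and 713 CPM in cDC1s, so the sum does not measure monocytes alone. The part of the listed markers in the result was not tested.

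In the other types, single members passed 1.5-fold on few UMIs. In classical monocytes 1 of 4 passed (22.3% of all genes did), *Slc6a8* at -3.18 (-5.59 to -1.39) with the border cells described above. With types taken from clusters this ratio was 1.09 (-1.80 to 6.57) on 1 and 8 UMIs. In nonclassical monocytes 1 of 3 passed (20.8% of genes), *Gatm* at 0.72 (-0.55 to 2.27). In CD8 T cells 1 of 4 passed (11.6% of genes), *Slc6a8* at 0.60 (-0.24 to 1.45), which fell to between 0.54 and 0.56, within 1.5-fold, under 4 other settings. In CD4 T cells the 1 member with enough UMIs passed (18.7% of genes), *Ckb* at -0.67 (-1.30 to -0.04). In gamma-delta T cells the 1 member passed (31.9% of genes), *Ckb* at 3.09 (1.69 to 4.99). In NK cells 1 of 2 passed (11.2% of genes), *Gatm* at -1.41 (-2.72 to -0.14) on 13 and 11 UMIs. The listed macrophage markers in NK cells were at 188 and 73.5 CPM, and their part in this was not tested. In Tregs 0 of 2 passed (14.2% of genes), and in melanoma cells 0 of 2 (34.3% of genes), where *Slc6a8* was at -0.52 (-1.04 to -0.01). The intervals of *Slc6a8* in CD8 T cells and of *Gatm* in nonclassical monocytes included 0.

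Over all cells kept, without cell types, *Slc6a8* was at 10.4 CPM in the control and 6.82 CPM with creatine, *Gatm* at 42.3 and 30.8, *Gamt* at 5.77 and 5.48, and *Ckb* at 95.8 and 68.8 CPM. Within macrophages no member passed 1.5-fold, and macrophages were 15.0% of control and 6.63% of creatine cells. Macrophages held 73.4% and 73.0% of all *Slc6a8* UMIs, and the melanoma cells 10.2% and 11.2%.

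**Figure D5:**
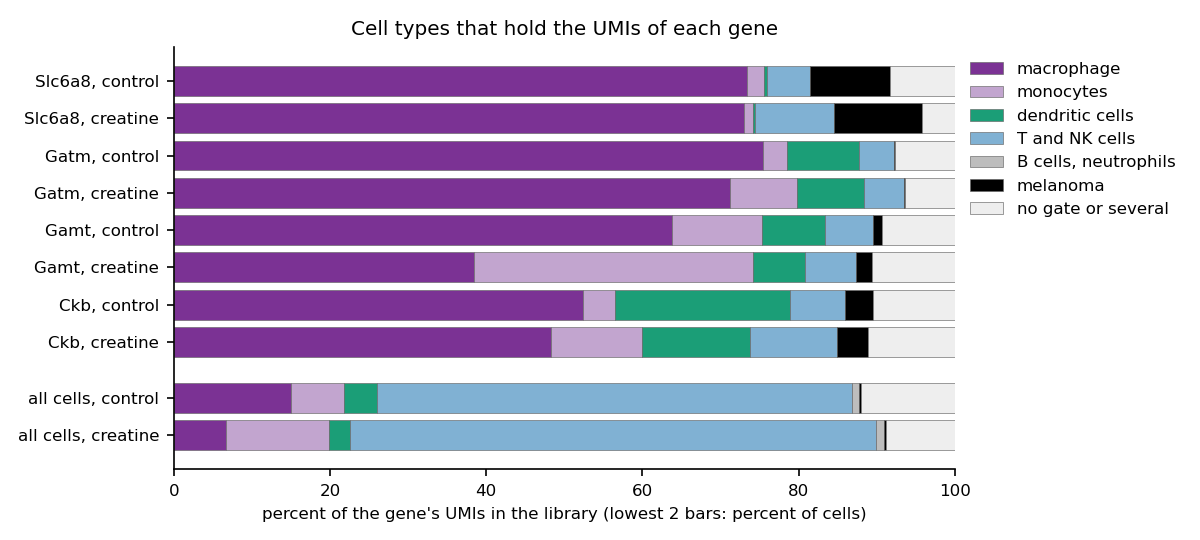
Share in percent of each member's UMIs held by each group of cell types, with a stacked bar per gene and library, and below them the same groups as a share of all cells kept. Macrophages were 15.0% and 6.63% of the cells but held 73.4% and 73.0% of the *Slc6a8* UMIs and 75.4% and 71.2% of the *Gatm* UMIs.

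Genes around creatine were taken from lists named by function, 35 genes in all. In macrophages 21 of them had at least 20 UMIs, 0 were higher (3.68% of all genes) and 1 was lower (6.85%) with creatine, and their median log2 ratio was -0.12 beside -0.03 over all genes. The lower gene was the mitochondrial arginase gene *Arg2*, at 2.47 and 0.92 CPM. In cDCs 16 had enough UMIs, 0 were higher (9.6% of all genes) and 2 lower (10.9%), with a median of -0.10 beside 0.02. The lower genes were *Oat*, the ornithine aminotransferase, at 78.0 and 44.7 CPM, and *Slc6a13*, a carrier of GABA and taurine, at 4.32 and 2.66 CPM on 15 and 5 UMIs. In classical monocytes 2 of 19 were higher (10.7% of all genes) and 5 lower (11.6%), with a median of -0.27 beside 0.03. The higher genes were *Mtr*, the methionine synthase, at 9.11 and 18.3 CPM, and the adenylate kinase gene *Ak3* at 13.7 and 20.6 CPM. Of the lower genes, *Arg1* was at 482 and 38.5 CPM, *Slc7a2* at 15.9 and 2.65 CPM, *Arg2* at 14.0 and 6.73 CPM, *Ak4* at 7.81 and 2.24 CPM and *Odc1*, which starts polyamine synthesis from ornithine, at 57.3 and 29.96 CPM, in the gate whose macrophage markers were at 743 and 323 CPM. In nonclassical monocytes 3 of 15 were higher (11.8% of all genes) and 0 lower (9%), with *Ass1*, which helps turn citrulline into arginine, at 16.3 and 39.2 CPM and *Ak6* at 18.6 and 28.7 CPM among the higher genes. In CD8 T cells 1 of 21 was higher (5.49% of all genes) and 5 lower (6.15%), with a median of -0.10 beside 0.04, and with *Odc1* at 331 and 209 CPM. The others were low: *Ckm* was the higher gene, and *Slc6a13*, *Slc6a12*, *Arg1* and *Ak4* were lower, at no more than 2.55 CPM in either library. The listed macrophage markers in CD8 T cells were at 96.1 CPM in the control and 43.9 CPM with creatine. Their part in the lower *Arg1* was not tested.

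The other creatine kinases gave few reads. *Ckm*, the muscle form, was at 1.46 and 1.23 CPM in macrophages and 1.02 and 1.67 CPM in CD8 T cells, with 1 UMI in the cDCs of each library. The mitochondrial kinase *Ckmt1* gave 0 UMIs in macrophages, monocytes, cDCs and CD8 T cells of both libraries, and *Ckmt2* gave 1, in creatine CD8 T cells. *Slc16a12*, a creatine exporter, gave 2 UMIs in control CD8 T cells and none in macrophages or cDCs, and *Slc16a9* 5 and 4 UMIs in macrophages. Of the genes near in function, the taurine carrier *Slc6a6* was at 363 and 340 CPM in macrophages and *Mat2a*, which makes S-adenosylmethionine, at 128 and 138 CPM in cDCs and 105 and 101 CPM in macrophages.

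Over the 25 sums of cell type and library with at least 20 cells, 11550 genes were compared with each member by Pearson's r of log2(CPM + 1). The sums of a library share its free RNA, and those of a type its cells, so r is a description. *Gatm* and *Gamt* were the most alike of the members (r = 0.83), followed by *Gatm* and *Ckb* (0.75), and *Slc6a8* was less like the others (0.46 to 0.55). The genes most like *Slc6a8* were *1700003F12Rik* (0.94), *Lonrf3* (0.94) and *Ahnak2* (0.92). Those most like *Gatm* were *Akr1a1* (0.92), *Anpep* (0.90) and *Gm33370* (0.89), those most like *Gamt* were *Depdc7* (0.94), *Cbr3* (0.94) and *Fzd7* (0.93), and those most like *Ckb* were *Trio* (0.88), *Idh2* (0.87) and *Sumo3* (0.85).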

How the data were processed

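Raw UMI counts per gene and cell were deposited as 1 filtered matrix per library; per the labels and methods, the authors made them with Cell Ranger 3.0.2 on the mm10 genome, with no normalization in these files. Here, barcodes with over 25% mitochondrial UMIs were removed (408 control, 274 creatine). Cells were typed by summed marker CPM with at least 3 UMIs: macrophages 1500 CPM of *C1qa*, *C1qb* and *C1qc*, classical monocytes 500, nonclassical monocytes 200, cDCs 300, *Ccr7*+ DCs 500, pDCs 2000, T cells 1000, NK cells 700, and melanoma cells 3000 CPM with 10 UMIs. These limits were set after the data were seen, and the members and lists were chosen with earlier results of these data known. Named genes were the members, listed genes highest in their list or past 1.5-fold in macrophages, monocytes, cDCs or CD8 T cells, and the 3 genes most like each member; some of these genes are not reported here. Cells in several gates (195 and 152) were left out of types; other doublets were kept where they passed a gate. Counts were summed per library and type. Poisson intervals for levels, conditional binomial intervals for ratios and Clopper-Pearson intervals for shares were exact, at 95%. With 1 library per group no test across genes was run. The ratios and their intervals were checked on simulated Poisson counts, which hold no variation between libraries. Clusters came from Leiden clustering. Alternatives are given at the end. Python 3.11.15, SciPy 1.17.1, scanpy 1.11.5 and edgeR 4.0.16 (TMM scaling only) were used.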

Additional observations from a re-analysis of the deposited data

Results flagged for a closer look

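Cells outside the types compared also held the members. The cells in no gate or in several gates together, 871 control and 551 creatine cells, were used in no comparison. *Slc6a8* was at 10.4 CPM (68 UMIs) and 4.39 CPM (21 UMIs) in them, *Gatm* at 39.3 (256 UMIs) and 29.7 CPM (142 UMIs), *Gamt* at 6.61 (43 UMIs) and 8.78 CPM (42 UMIs), and *Ckb* at 123 (801 UMIs) and 115 CPM (551 UMIs). All 8 values lay above the level that a count of 0 allows, 0.461 CPM for control and 0.627 CPM for creatine cells. Of these cells, the 676 control cells in no gate held *Slc6a8* at 14.3 CPM and the 399 creatine cells at 4.33 CPM. Which cell types these are was not tested.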

How the results depend on the processing

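The alternatives were TMM scaling, CPM without mitochondrial and ribosomal protein genes, stricter cell filters (500 genes, 10% mitochondrial UMIs), equal weights for cells, cell types from clusters, leaving out the 6% of cells with the highest doublet score, and *C1q* limits of 750 and 3000 CPM, the last chosen after seeing the data. Of 208 recomputed log2 ratios of creatine to control, 190 kept their direction and 193 their side of 1.5-fold. Apart from *Slc6a8* in classical monocytes, the ratios that changed direction were within 1.5-fold under both settings. Among them, *Ckb* in classical monocytes went from -0.08 to 0.57 with clusters, just within that limit. In macrophages the ratios ranged from 0.07 to 0.19 for *Slc6a8*, 0.14 to 0.26 for *Gatm*, -0.13 to 0.03 for *Gamt* and 0.09 to 0.25 for *Ckb*, and in cDCs from -0.49 to -0.37 for *Ckb*. The *Slc6a8* ratio in classical monocytes, -3.18, became 1.09 when types were taken from clusters. The monocyte clusters held 1 UMI in 221 control cells and 8 UMIs in 703 creatine cells. Within them, the gated classical monocytes held 1 UMI in 105 control cells and 1 in 415 creatine cells. The other creatine UMIs came from cells that the gate did not call classical monocytes. The *Ckb* ratio in macrophages was 0.24 with each cell weighted equally and 0.25 with clusters. The cause was not tested for the levels that moved: equal weights gave macrophage levels of 119 and 143 CPM for *Gatm* (control, creatine), 14.5 CPM for control *Gamt* and 192 and 227 CPM for *Ckb*, and cDC levels of 446 and 319 CPM for *Ckb*. Clusters gave 30.4 CPM for control macrophage *Slc6a8*, 119 and 143 CPM for *Gatm*, 192 and 228 CPM for macrophage *Ckb*, and 427 and 331 CPM for cDC *Ckb*. Thinned to 1000 UMIs, macrophages with a UMI were 3.42% and 4.02% for *Slc6a8*, 11.9% and 12.1% for *Gatm*, 1.005% with creatine for *Gamt*, and 16.4% and 19.3% for *Ckb*. Of the listed genes, with no UMI minimum 2 were higher and 2 lower in macrophages, 2 and 6 in cDCs, and 2 and 9 in CD8 T cells. At 2-fold 1 was higher in classical monocytes, 0 lower in cDCs, and 0 higher and 3 lower in CD8 T cells. The share of all genes past these other limits was not computed. The counts thus show only how the calls moved with the limits, and nothing about the listed genes. *Slc6a8* in CD8 T cells fell under 1.5-fold in 4 alternatives, the lowest 0.54, and *Gatm* in nonclassical monocytes in 3, the lowest 0.27. Calls were gained for *Ckb* in NK cells in 3 alternatives (-0.72 to -0.64), *Slc6a8* in melanoma cells in 2 (-0.78 and -0.64), and in 1 each for *Ckb* in melanoma cells (-0.68), *Gamt* in classical monocytes (0.68) and *Gatm* in CD8 T cells (-0.67). No paired analysis was possible because each group is 1 library. Depth limits *Slc6a8* in DCs and T cells, where few UMIs were counted.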
